A study of Mus musculus with 25 samples.

Results

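Cluster 8 was 1 of 16 numbered groups that the authors gave in their deposited table of myeloid cells from the injured mouse spinal cord. Its members were all cells with that number, 1735 of 30958 cells in the series, and every one of them carried cell type code 2, the authors' code for 12841 cells in all. The remaining 11106 cells of that code are called the other code 2 cells here. A working name for cluster 8 pointed to macrophages with Fn1 that enter the cord from blood, and 5 of its marker genes are described here: Ccl24, Fn1, Gdf3, Tgfbi and Ms4a7. These markers did not keep 1 sign against the other code 2 cells, and the share of cluster 8 did not differ between sorts past the test's threshold, so neither part of the name was settled. The cells are therefore called by their number. The highest ratios belonged to the chemokine Cxcl14 and to Srm, an enzyme of polyamine synthesis. Cxcl14 was detected in only a minority of the pooled cluster 8 cells (16.4%).

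The libraries were made from sorted myeloid cells of a 5 mm lesion segment, each from 1 to 3 mice, after laminectomy alone (Ctrl, 2 libraries) or after spinal cord injury, with 5 libraries from day 1 (D1), 4 from day 2 (D2), 7 from day 3 (D3), 5 from day 10 (D10) and 2 from day 21 (D21). All mice carried Cx3cr1CreERT2, an inducible Cre recombinase at the locus of the chemokine receptor Cx3cr1, and the ages of the mice were not given in the sources used here. In 12 mixed libraries the strain was Cx3cr1CreERT2 alone and YFP+ cells of both kinds were collected. The other strain, Cx3cr1CreERT2:R26tdTomato, adds a red fluorescent reporter (RFP) that Cre switches on, and there the 5 resident libraries held RFP+/YFP+ cells and the 7 infiltrating libraries RFP-/YFP+ cells. The last library, D3_conflict 1, was titled as infiltrating but its sort label was RFP+/YFP+. Sort and strain were split the same way and cannot be told apart in any comparison of mixed with infiltrating libraries. Cx3cr1 is active both in microglia and in many blood monocytes, so the reporter separates cells by when Cre acted on them and not by a permanent cell type.

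Monocytes that enter an injured cord become macrophages, which clear myelin and blood, release chemokines and matrix proteins, and take up metabolic states that differ with time. Fibronectin (Fn1) and Tgfbi are matrix proteins of early wounds. Ribosomes are assembled in the nucleolus, where ribosomal RNA is cut, chemically modified by small guide RNAs with proteins such as Nop58, Nop56 and Fbl, and joined to ribosomal proteins. Cells raise this machinery when they grow or raise protein synthesis, and the same cells usually need purines and polyamines.

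Cells per library numbered 155 to 3800 and UMIs 486649 to 33204422, with per-cell medians of 1577 to 11233 UMIs. Barcodes of 16 bases were shared between libraries in 127 cases. Among cluster 8 cells 21 shared a barcode with a cell of another library, and 0 with another cluster 8 cell. D3_mixed 3 stood apart: 2676 of its 2885 other code 2 cells (92.8%) were in cluster 9, while those of D2_resident 1 lay in clusters 11 (51 cells), 14 (49) and 9 (29). In the other 6 libraries used for ratios, clusters 11 and 12 made up most of them.

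Cluster 8 cells belonged to the first days after injury. D1, D2 and D3 libraries held 1718 of the 1735 cells (99.0%), namely 636, 384 and 698. D10 libraries held 15 and D21 libraries held 2. Most code 2 cells, cluster 8 included, were early as well, with 3248, 1376 and 7130 at D1, D2 and D3, 920 at D10 and 167 at D21. No cluster 8 cell was found among 1887 cells of the control libraries, which allows a share of up to 0.159% (3 cells, counting error only). The control libraries also held no other code 2 cell, so the absence was not particular to cluster 8. Cells were found in 20 of 25 libraries, but 8 libraries with at least 20 such cells each held 1674 of them (96.5%).

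**Figure D1:**
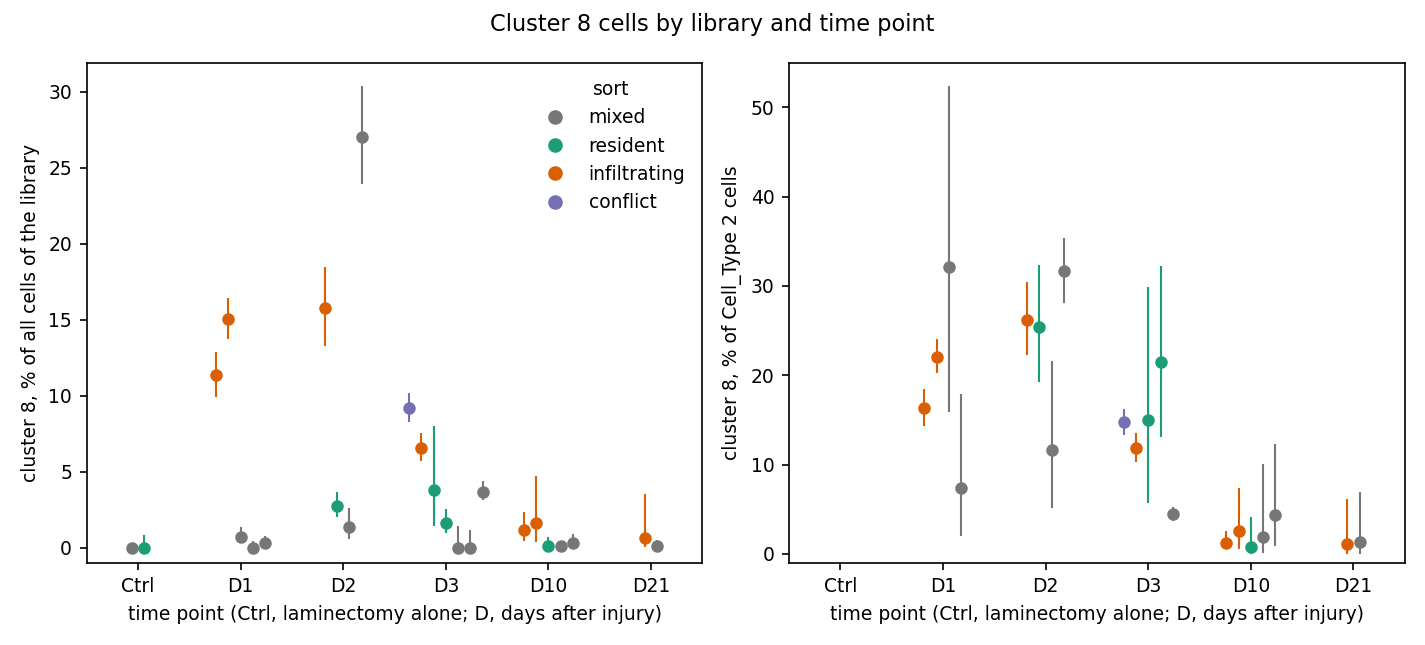
Share of cluster 8 cells in each library by time point, as a percent of all cells (left) and of code 2 cells (right, libraries with at least 20 code 2 cells); points are single libraries coloured by sort and bars are 95% exact binomial (Clopper-Pearson) intervals. All shares at D10 and D21 lie under 5%, while D1 to D3 libraries reach 27.1% of all cells and 32.1% of code 2 cells.

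As a share of code 2 cells, cluster 8 varied widely between libraries of the same day. In infiltrating libraries the D1 values were 16.3% and 22.1%, the D2 value 26.2% and the D3 value 11.8%, and later ones 1.28% and 2.59% (D10) and 1.12% (D21). The 2 resident libraries at D3 had 15.0% and 21.5%, and D2_resident 1 had 25.4%. Among mixed libraries with at least 20 code 2 cells the shares ran from 7.41% to 32.1% at D1, from 11.6% to 31.6% at D2 and stood at 4.44% in D3_mixed 3. The 95% exact interval of the 32.1% in D1_mixed 1 ran from 15.9% to 52.4%, since that library held only 28 code 2 cells. D1_mixed 2, below that limit, had 0 cluster 8 cells among 12 code 2 cells. No test was run across time points, because genes that define the cluster may themselves change with time. A lower share of sorted cells does not separate fewer cluster 8 cells from more of the other cells.

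The reporter sort asked whether these cells came in from outside. On each day with both sorts the infiltrating share of all cells was higher: 15.8% against 2.75% at D2, 6.58% against 3.77% and 1.60% at D3, and 1.15% and 1.64% against 0.129% at D10, with 1 or 2 libraries a side and no test within days. Cluster 8 made up 7.45% ± 6.61 (SD, n = 7) of all cells in infiltrating libraries and 1.65% ± 1.64 (SD, n = 5) in resident libraries. The infiltrating values ran from 0.645% to 15.8% and the resident values from 0% to 3.77%, so the groups overlapped when days were pooled. D1 and D21 gave infiltrating libraries only and Ctrl a resident one only, and the test did not take day into account. The difference of 5.80 percentage points did not pass a 2-sided exact permutation test over the libraries (p = 0.0972, 792 arrangements). With D3_conflict 1 counted as infiltrating the exact permutation p was 0.0622, and with it counted as resident 0.153. Among code 2 cells alone the direction turned, with 11.6% ± 10.4 (SD, n = 7) in infiltrating and 15.7% ± 10.8 (SD, n = 4) in resident libraries (exact permutation p = 0.576). Resident libraries held cluster 8 cells in each of D2_resident 1 (47), D3_resident 1 (6), D3_resident 2 (17) and D10_resident 1 (1).

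The 5 given markers did not set cluster 8 apart from the other code 2 cells. Levels were compared within each of the 8 libraries that held at least 20 cells of both kinds, as CPM, the UMIs of a gene scaled to a common total per summed set of cells, and as log2 ratios with 5 CPM added to both sides. Since the clusters were made from these same counts, the ratios describe the cells and carry no test.

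Fn1 (GRCm38, chr1:71585520-71653200, minus strand) ran from 301 to 3203 CPM in cluster 8 (median 816) and from 77.9 to 2355 in the other code 2 cells (median 861). The libraries high in one set were high in the other: Fn1 was at 3203 and 2355 CPM in D1_infiltrating 2 and at 3018 and 1763 in D2_infiltrating 1, for cluster 8 and the others in turn. Its mean log2 ratio was 0.36 ± 0.75 (SD, n = 8 libraries), and it was higher in 5 of 8. Most of its mean came from D3_mixed 3, where the ratio was 1.89 and the comparison cells were nearly all cluster 9. Tgfbi, another matrix protein, showed the same pattern, with a mean of 0.40 ± 0.78 and 1.91 in D3_mixed 3. The growth factor Gdf3 (0.51 ± 1.01) and the eosinophil chemokine Ccl24 (0.27 ± 1.15) were low in level, at most 102 and 289 CPM in cluster 8, and changed sign between libraries. Ms4a7, a membrane protein of mature macrophages, was higher in 7 of 8 libraries (0.55 ± 0.63), with D1_infiltrating 2 as the exception. No marker of the 5 had the same sign in all 8 libraries.

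**Figure D2:**
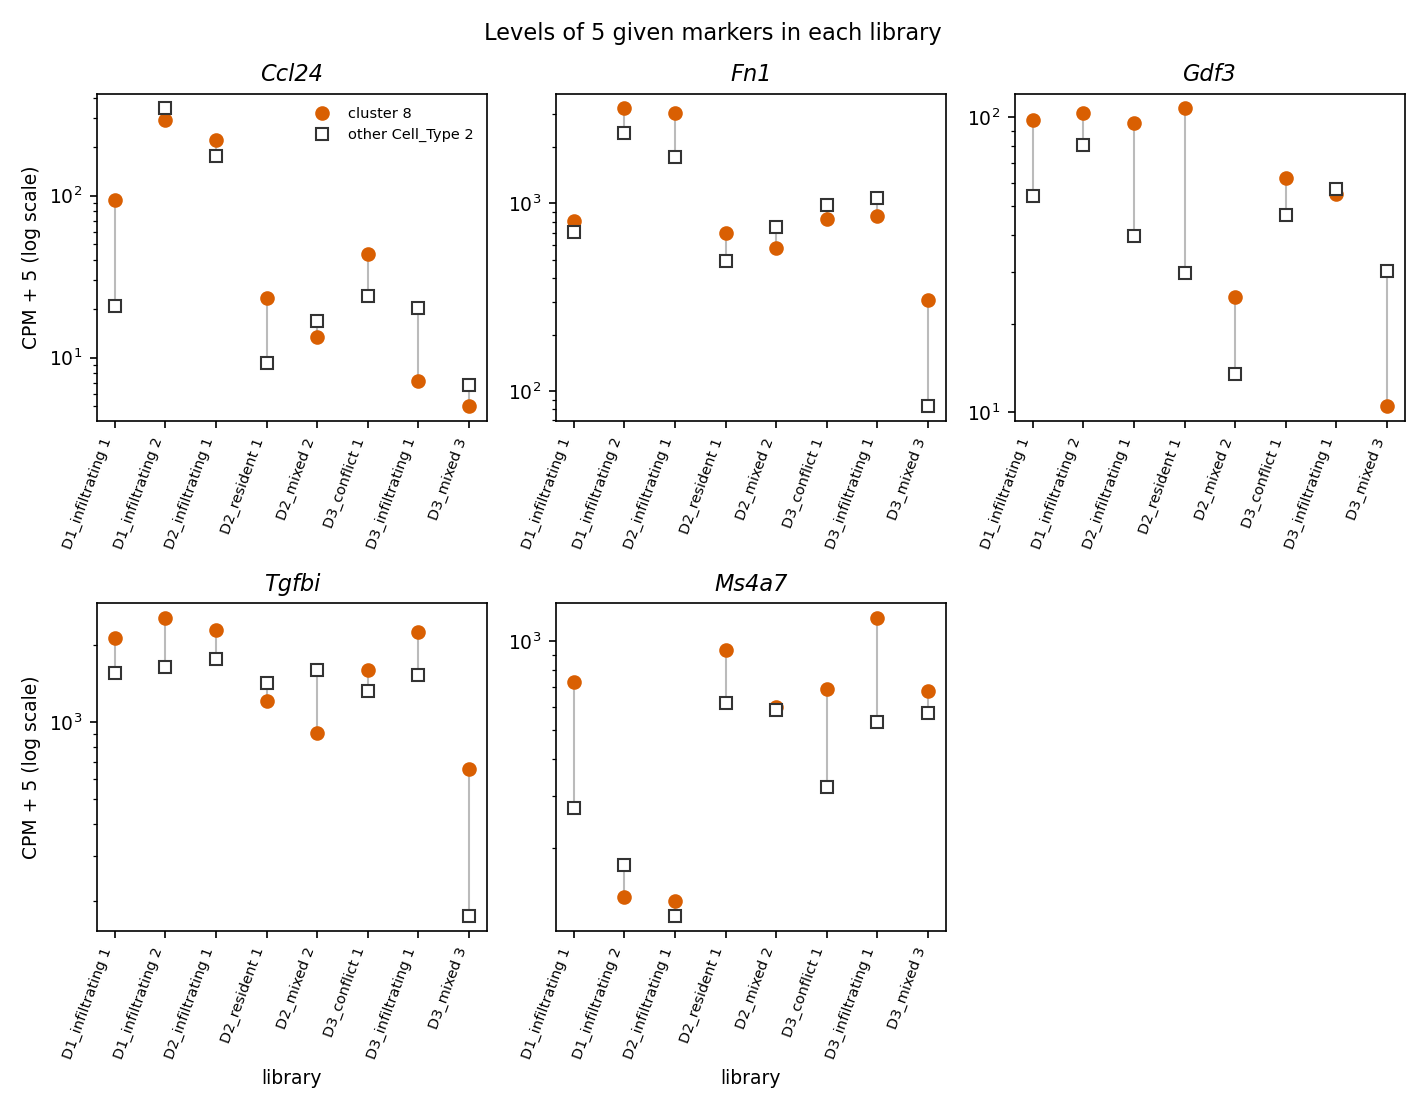
Level of 5 given markers in each of 8 libraries, as CPM + 5 on a log axis, for the summed cluster 8 cells (filled) and the summed other code 2 cells (open squares), joined by a line. The pairs follow each other between libraries, and Fn1 is highest in both sets in D1_infiltrating 2 and D2_infiltrating 1.

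Set against single clusters, the 5 markers separated cluster 8 from some neighbours and not from others. Against cluster 11, the largest of the other code 2 groups with 4504 cells, the median of the 5 mean ratios was 0.03, and Fn1 was higher in 4 of 8 libraries (0.01 ± 0.31). Against cluster 12 (2043 cells) Ms4a7 was higher in 6 of 6 libraries (2.53 ± 1.04), and Gdf3 likewise (1.68 ± 0.44), while Fn1 was higher in 3 of 6 (0.01 ± 1.00). Against cluster 9 (3554 cells) Fn1 and Tgfbi were higher in 5 of 5 libraries, at 1.62 ± 0.64 and 1.36 ± 0.43. Of these 3 clusters, cluster 11 was the nearest to cluster 8 by the given markers.

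Detection per cell was taken over the pooled cells of the 8 libraries, of which D3_mixed 3 supplied 134 of 1674 cluster 8 cells but 2885 of 9795 other code 2 cells. The part of this unequal mix in the shares was not tested. With every cell thinned to 1500 UMIs, Fn1 had a UMI in 58.6% of cluster 8 cells, 44.6% of the other code 2 cells and 8.10% of the cells of code 4, in which 7 of 7 neutrophil markers reached 20 CPM and which should lack it. Without thinning these shares were 81.7%, 66.4% and 11.4%, at median depths of 12478, 8968 and 2151 UMIs. No cluster 8 cell, 214 other code 2 cells and 197 code 4 cells fell under 1500 UMIs and were left out. Thinned Ms4a7 stood at 39.4%, 34.0% and 2.91%. Tgfbi was in 80.9%, 58.0% and 53.0%, so that code 4 cells also held it often.

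Macrophage markers were abundant in cluster 8, as in the other code 2 cells. All 8 macrophage markers (such as Adgre1, Cd68 and Csf1r) reached 20 CPM in the summed cluster 8 cells, and their sum ran from 5931 to 17442 CPM per library against 6414 to 36129 in the other code 2 cells. In code 4 cells 6 of the 8 reached 20 CPM too, but their sum over the pooled cells was 926 CPM, against 11896 in cluster 8. All 7 monocyte markers reached 20 CPM, with sums of 338 to 3579 CPM in cluster 8 and 395 to 8374 in the others. The microglia list summed to 70.2 to 433 CPM against 37.8 to 213, and 5 of its 8 genes (P2ry12, Sall1, Siglech, Gpr34 and Sparc) were under 20 CPM in both sets. Neutrophil markers summed to 13.7 to 88.3 CPM in cluster 8 and 54.0 to 434 in the others. No marker of dendritic, T or NK, B, astrocyte, endothelial or fibroblast lists reached 20 CPM, and Clec9a, Cd3e and Col3a1 were at 0. Mbp of the oligodendrocyte list and 3 of 5 erythrocyte markers did reach it, the latter through D1_infiltrating 1, whose erythrocyte sum was 1514 CPM beside a median of 4.40 over the 8 libraries. The part of these other cells' RNA in the ratios was not tested.

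The genes with the highest ratios in cluster 8 included 6 of ribosome assembly among 20. Of 5221 measured genes, those whose mean over the 2 summed sets was at least 20 CPM, 970 (18.6%) were higher in cluster 8 in all 8 libraries and 363 (6.95%) were lower in all 8, with a median log2 ratio over all genes of 0.02. The 20 with the highest mean ratio, among those higher in all 8 libraries and at 50 CPM or more, were Cxcl14, Srm, Fcrls, C1qa, Gpatch4, C1qbp, Dkc1, Atic, Hmgn1, Nhp2, Ybx3, Rrp15, Mrps28, Nop58, Mettl1, Gar1, Apex1, Nudcd2, Eif2b3 and Dctpp1, from 1.51 down to 1.10. The 6 are Gpatch4, Dkc1, Nhp2, Rrp15, Nop58 and Gar1. Gar1, Nhp2 and Dkc1 are proteins of the same box H/ACA particle, which converts uridine to pseudouridine in ribosomal RNA. Nop58 belongs to the box C/D particle, which methylates it, and Rrp15 takes part in the maturation of the large subunit.

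**Figure D3:**
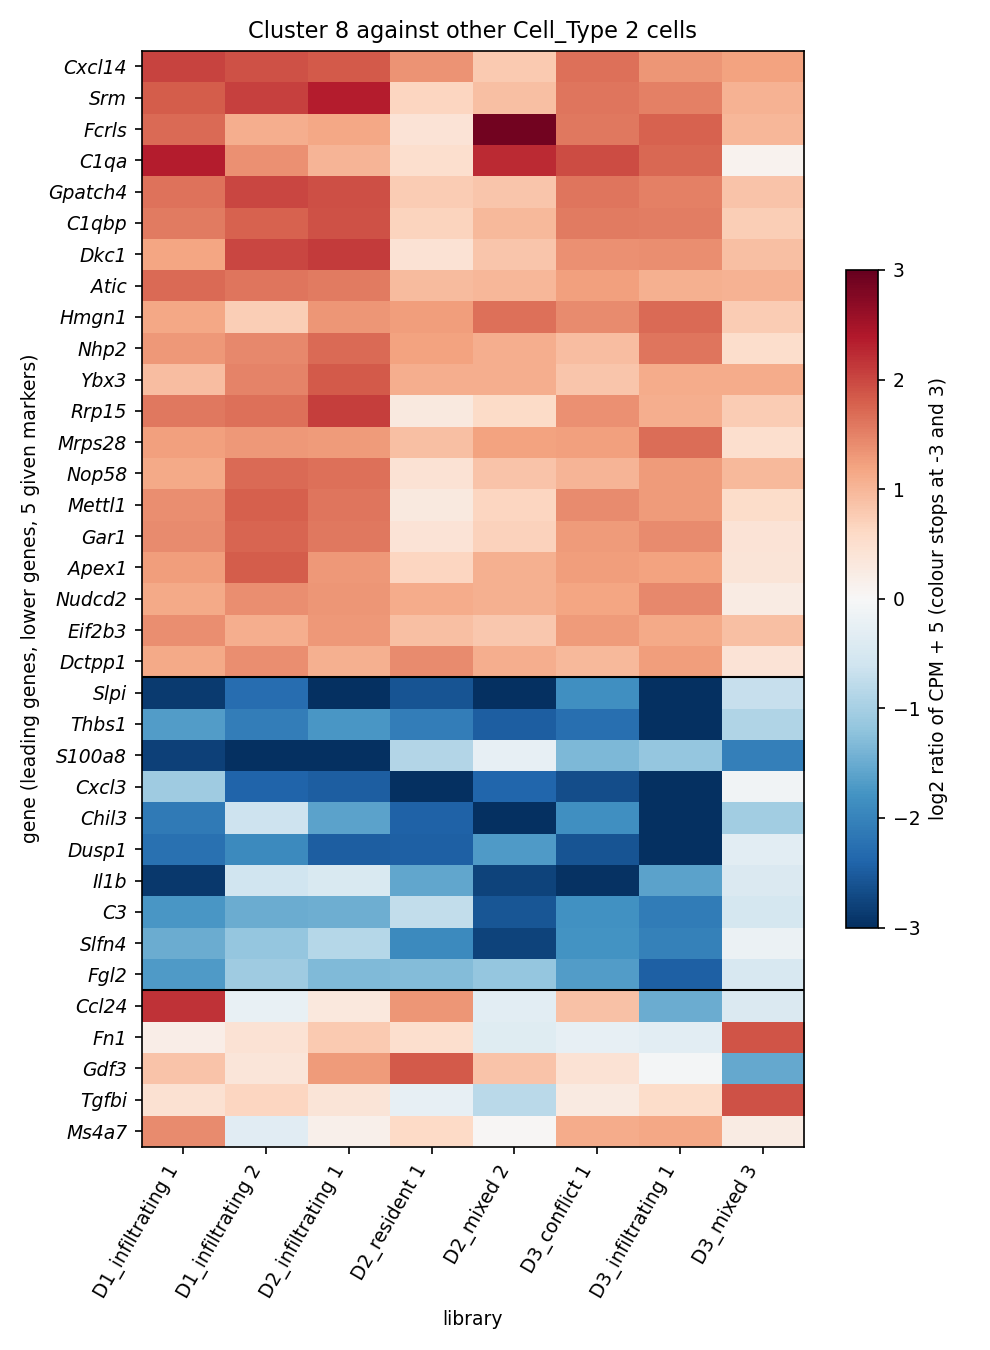
Log2 ratio (CPM + 5) of cluster 8 to the other code 2 cells in each of 8 libraries for the 20 leading genes, the 10 lowest genes and 5 given markers; the colour scale stops at -3 and 3. The leading and lowest genes were chosen for 1 sign in every library, and the given markers, which were not, change sign between libraries.

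Dkc1 (chrX:75095854-75109777, plus strand), the pseudouridine synthase, ran from 31.6 to 90.7 CPM in cluster 8 (median 36.8) and from 11.3 to 24.7 in the others (median 16.3). The ranges of the 2 sets did not overlap. Nop58 (chr1:59684971-59719044, plus strand) ran from 60.3 to 158 CPM against 28.2 to 65.6, with a mean ratio of 1.13 ± 0.42, and these ranges met at their edges. For C1qbp, a mitochondrial matrix protein needed for mitochondrial translation despite its name, the values were 176 to 299 CPM against 56.7 to 132 (1.34 ± 0.47). Mettl1, which methylates transfer RNA, and Eif2b3, a subunit of the exchange factor that recharges initiation factor eIF2, were 1.13 ± 0.55 and 1.10 ± 0.22 higher on the log2 scale. Ratios were lowest for Nop58, Dkc1, Rrp15 and Mettl1 in D2_resident 1, at 0.43, 0.43, 0.30 and 0.30.

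A list of 50 nucleolar and ribosome assembly genes was written after the leading genes had been seen, so its count extends that observation and is no independent support for it. Of its 41 measured members 30 (73.2%) were higher in all 8 libraries and 0 were lower, with a median ratio of 0.81, beside 18.6% and 6.95% of all measured genes. Its members included Nop56 (1.05 ± 0.50), a partner of Nop58, Ncl (0.92 ± 0.41) and Npm1 (0.88 ± 0.28), the abundant nucleolar proteins nucleolin and nucleophosmin, and Fbl (0.87 ± 0.39), the methyltransferase of the box C/D particle. Npm1 reached 613 to 1045 CPM in cluster 8 and 365 to 502 in the others. The list median was above 0 in each library, from 0.30 in D2_resident 1 to 1.31 in D2_infiltrating 1. Against cluster 11 alone it was 0.74, against cluster 12 1.26 and against cluster 9 0.68.

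Cluster 8 cells also held more UMIs than the other code 2 cells in most libraries. Whether cluster 8 cells held more RNA per cell was not tested. Their median UMI count was 6264 to 14971 per library against 4898 to 11563 in the other code 2 cells, higher in 7 of 8 libraries, with a ratio of 2.59 in D2_resident 1 and 0.907 in D3_mixed 3. Among cells taken from a shared window of UMIs in each library, the nucleolar list median was 0.77 and 27 of 41 members were higher in all 8 libraries, beside 763 of all 5221 measured genes. Median mitochondrial percentages were 0.177% to 1.58% in cluster 8 and 0.194% to 1.63% in the others.

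Per cell the difference was graded and the sets overlapped. The nucleolar list took a median of 0.363% to 0.584% of a cluster 8 cell's UMIs and 0.207% to 0.311% in the other code 2 cells. Of the other cells 0.568% in D2_infiltrating 1 and 37.0% in D2_resident 1 lay above the cluster 8 median of their own library, and 2.38% to 12.7% in the remaining 6. Thinned to 1500 UMIs, a Srm UMI was found in 15.5% of cluster 8 cells, 5.54% of the other code 2 cells and 1.27% of code 4 cells. Nop58 stood at 15.7%, 5.80% and 3.81%.

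Several enzymes of polyamine and purine synthesis were higher in all 8 libraries. Srm (chr4:148591503-148594993, plus strand), spermidine synthase, ran from 96.9 to 143 CPM in cluster 8 (median 103) and from 23.3 to 65.3 in the others (median 31.8), with no overlap and a mean ratio of 1.49 ± 0.59. Odc1, the ornithine decarboxylase that opens the pathway, was 0.68 ± 0.36 higher and Sms, spermine synthase, 0.42 ± 0.22, both in all 8 libraries. These 3 genes were picked out of the list of alternative activation and arginine metabolism, in which 3 of 7 measured genes were higher and 1 (Chil3) lower in all 8 libraries, with a median of 0.38. Atic (chr1:71557150-71579631, plus strand), which closes the purine ring, was 1.27 ± 0.31 higher, at 74.0 to 127 CPM against 25.5 to 50.7. In a list of purine and one-carbon genes, again written after the leading genes were known, 4 of 8 measured members (Gart, Paics, Atic and Impdh2) were higher in all 8 libraries and 0 lower, with a median of 0.69. For translation initiation and tRNA charging the count was 12 of 24, with 0 lower and a median of 0.37. Over all measured genes the shares were 18.6% higher and 6.95% lower.

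The upstream 250 bases of the leading genes were searched for CACGTG, the E-box that MYC proteins can bind, which reads the same on both strands. Promoters from the RefSeq table (GRCm38.p6) matched 15 of the 20 genes, and 2 of these (13.3%) held the motif, against 11.2% of 4241 measured genes and 6.86% of all 27025 genes in the table. Of the 10 lowest genes 9 matched and 3 (33.3%) held it. In the nucleolar list 1 of 37 matched genes (2.70%) held it. A match is a description of these letters, not a site. The 2 promoters with a match belong to Atic and to Apex1, a DNA repair endonuclease, and their last 100 bases before the start that this table uses are shown with the motif in capitals, Atic from chr1:71557056-71557155 and Apex1 from chr14:50924849-50924948, both on the plus strand. GENCODE places the start of Atic at 71557150, inside the stretch shown and across the motif, and that of Apex1 at 50924968, downstream of it.
Atic: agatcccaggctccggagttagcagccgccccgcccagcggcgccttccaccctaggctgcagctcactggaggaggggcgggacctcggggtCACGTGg
Apex1: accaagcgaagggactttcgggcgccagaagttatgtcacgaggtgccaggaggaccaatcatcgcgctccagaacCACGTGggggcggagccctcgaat

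C1qa and Fcrls, both among the leading genes, were higher than in the other code 2 cells as a whole but not than in cluster 9. C1qa (chr4:136895917-136898803, minus strand), a chain of the complement starter C1q, was 1.41 ± 0.81 higher than in the other code 2 cells of the same library and C1qb 1.09 ± 0.63. C1qa ran from 364 to 2456 CPM in cluster 8 and from 131 to 2278 in the others, so levels overlapped across libraries although each library kept the order. Fcrls, a receptor-like gene best known from microglia, was 1.45 ± 0.73 higher, at 8.96 to 234 CPM against 1.25 to 173. Tmem119, a microglial surface protein, was higher in all 8 libraries (0.79 ± 0.56), whereas Cx3cr1 was higher in 6 of 8. Against cluster 9 C1qa and Fcrls stood at -0.60 ± 1.01 and -0.69 ± 1.21 (higher in 2 and 1 of 5 libraries), while both were higher than in cluster 11 in 8 of 8 libraries and than in cluster 12 in 6 of 6. Of 16 measured phagocytosis and complement genes 2 were higher in all 8 libraries (C1qa, C1qb) and 3 lower (C3, Fcgr3 and Fcgr4), with a median of -0.01, so the list as a whole did not stand above the 18.6% of all genes. Of 3 measured microglia genes 1 was higher, Tmem119. Among cells of like depth C1qa was higher in 7 of 8 libraries. Over the pooled cells a C1qa UMI was found in 38.8% of cluster 8 cells and 30.1% of the other code 2 cells. With the cells thinned as for Fn1 the shares were 30.8% and 23.6%.

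Of 14 measured chemokines 2 were higher (14.3%) and 1 lower (7.14%) in every library, close to the 18.6% and 6.95% of all genes, with a list median of -0.57. Cxcl14 (chr13:56288643-56296551, minus strand), a chemokine, ran from 55.0 to 123 CPM in cluster 8 and from 14.1 to 50.7 in the others, with no overlap and a mean ratio of 1.51 ± 0.42. It was also higher than in cluster 11 (8 of 8 libraries), cluster 12 (6 of 6) and cluster 9 (5 of 5). Most cluster 8 cells had no Cxcl14 UMI, however. Over the pooled cells one was found in 16.4% of cluster 8 cells and 9.73% of the other code 2 cells. With the cells thinned as for Fn1 the shares were 7.35% and 3.38%. Cxcl16, a membrane-bound chemokine and lipid scavenger, was higher in all 8 libraries by 0.61 ± 0.32. Cxcl3, which draws neutrophils, was lower in all 8, by -2.18 ± 1.06, but its level in cluster 8 spanned 0 to 606 CPM. In D3_mixed 3 it was at 0 CPM against 0.378 in the others.

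The lowest ratios in cluster 8 included genes of monocytes and of inflammation, but few of those lists kept 1 sign. Of 7 measured inflammatory genes 1, Il1b, was lower in all 8 libraries, beside 6.95% of all measured genes, with a list median of -0.61. Il1b was not lower than in cluster 11, at -0.10 ± 0.65 and higher in 5 of 8 libraries. Among cells of like depth its ratio was -0.69, and it was higher in 2 of 8 libraries. The 10 lowest, among genes lower in all 8 libraries and at 50 CPM or more in the others, were Slpi, Thbs1, S100a8, Cxcl3, Chil3, Dusp1, Il1b, C3, Slfn4 and Fgl2, from -2.44 to -1.39. In D3_mixed 3 the sign of several rested on levels near 0 in both sets. Cluster 8 and the others stood there at 0 and 0.378 CPM for Cxcl3, 0 and 2.22 for C3, and 1.10 and 1.89 for Slfn4. For Dusp1 the values were 2.19 and 3.92 CPM, for Il1b 2.19 and 4.73, and for Fgl2 2.19 and 5.06. Among cells of like depth Thbs1 (-1.92), Cxcl3 (-1.26) and Slfn4 (-1.02) were each higher in 1 library. Slpi (chr2:164354070-164389095, minus strand), a secreted protease inhibitor, ran from 51.5 to 176 CPM in cluster 8 (median 83.7) and from 85.7 to 950 in the others (median 582). The others were lowest in D3_mixed 3, and the next library stood at 350 CPM. Chil3, a chitinase-like protein of monocytes and of alternatively activated macrophages, ran from 91.8 to 2118 CPM against 350 to 4714 (-2.12 ± 1.16). Thbs1, the matrix protein thrombospondin 1, was -2.25 ± 1.13, with a ratio of -4.78 in D3_infiltrating 1.

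In the monocyte list 1 of 7 genes, Chil3, was lower in all 8 libraries (6.95% of all measured genes were), and the list median was -1.48. Ccr2, the receptor that brings monocytes out of the marrow, did not follow, with 0.25 ± 1.02 and 4 of 8 libraries on each side. D3_mixed 3 opposed the others: its monocyte list median was 1.05, against -2.98 to -0.58 in the other 7 libraries. Against cluster 9, which supplied most of the comparison cells there, the mean ratio of 8 of the 10 lowest genes turned to the higher side. Single libraries differed: Slpi (0.96 ± 1.98) and Slfn4 (0.66 ± 1.24) were each higher in only 2 of 5. Without that library 1026 genes instead of 363 were lower in all remaining libraries. S100a8 is also a neutrophil gene, 1 of 2 measured in the neutrophil list. It was lower in cluster 8 in each of the 8 libraries. Its levels overlapped across libraries, at 0 to 59.6 CPM in cluster 8 and 16.5 to 326 in the others.

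**Figure D4:**
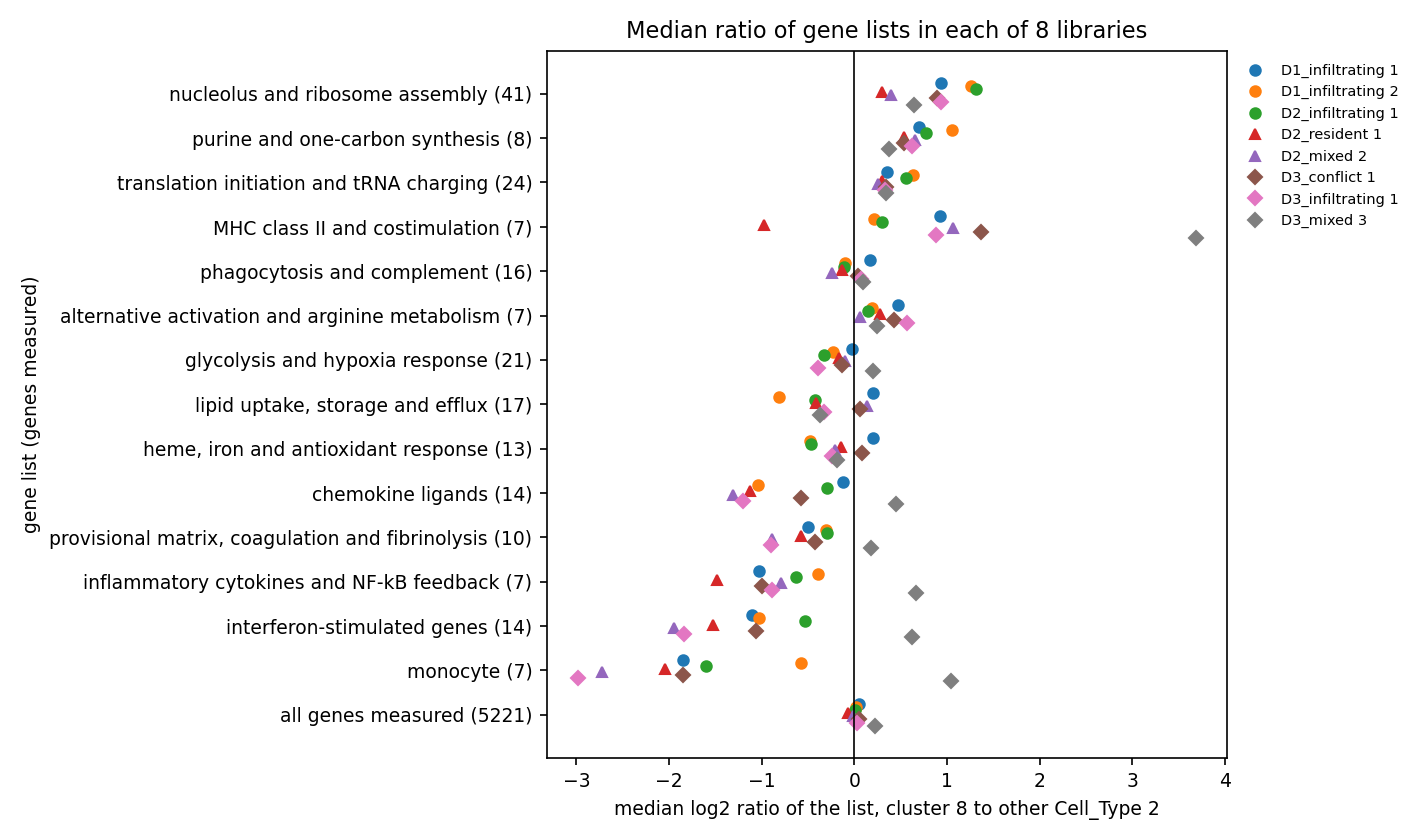
Median log2 ratio of each gene list in each of 8 libraries, cluster 8 against the other code 2 cells, with the number of measured genes in parentheses; points are libraries and the bottom line is the median of all 5221 measured genes. The nucleolar, purine and translation lists lie above 0 in every library, while D3_mixed 3 opposes the others for interferon, monocyte and inflammatory genes.

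Interferon-stimulated genes were lower in 7 of 8 libraries as a list. The median over 14 genes was -1.07, from -1.95 in D2_mixed 2 to -0.54 in D2_infiltrating 1, and 0.62 in D3_mixed 3. Ifit3, an RNA-binding antiviral protein, had ratios of -3.52 to 0.71 and Isg15, a ubiquitin-like protein, -2.70 to 1.01. No member kept 1 sign in all 8 libraries. Per cell the list took a median of 0.192% to 0.542% of UMIs in cluster 8 and 0.170% to 0.892% in the other code 2 cells. The cluster 8 median was the lower one in 6 of 8 libraries, by little in D2_infiltrating 1 (0.283% against 0.297%). It was the higher one in D3_mixed 3 and also in D2_resident 1 (0.428% against 0.367%), where the list ratio was -1.52.

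Of 7 measured genes of MHC class II and costimulation 0 kept 1 sign in all 8 libraries. The list median was 0.94 and was above 0 in 7 of 8 libraries, from 0.21 in D1_infiltrating 2 to 3.69 in D3_mixed 3, and -0.98 in D2_resident 1. Cd74, the invariant chain, ran from 1837 to 7885 CPM in cluster 8 and from 293 to 4265 in the others. Cd86, a costimulatory ligand, was lower in 7 of 8 libraries. Per cell, D1_infiltrating 2 had a lower median in cluster 8 (0.0369% of UMIs) than in the others (0.0418%), and D2_resident 1, with its list ratio below 0, a higher one (0.0562% against 0.0299%). Within cluster 8 the cells were far from uniform: in D3_infiltrating 1 the lower quartile of the list's share of UMIs was 0.00835%, the median 0.234% and the upper quartile 2.33%. In D2_mixed 2 the same points were 0.00912%, 0.0185% and 0.0637%. For the nucleolar list the quartiles in D3_infiltrating 1 were 0.434% and 0.691%.

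The counts of the other lists stand beside 18.6% higher and 6.95% lower among all measured genes. Of 10 measured genes of provisional matrix and coagulation 0 were higher and 3 lower in all 8 libraries, Thbs1, the fibrin-linking F13a1 and the transglutaminase Tgm2, with a median of -0.42. Lipid genes gave 0 higher and 4 lower of 17 (the sterol exporter Abcg1, the fatty acid carrier Fabp4, Npc2 and Soat1), with a median of -0.35. Glycolysis and hypoxia genes gave 2 higher (Gapdh, Mif) and 3 lower (Hk3, the lactate exporter Slc16a3 and Bnip3) of 21. Among heme and antioxidant genes 2 of 13 were lower, the heme oxygenase Hmox1 (-0.73 ± 0.56) and Srxn1. Of 13 matrix receptors Itga6, Itgb1 and Itgax were higher and Sdc1 lower. The proliferation marker Mki67 was at 0.665 to 7.67 CPM in cluster 8 and 2.47 to 20.1 in the others, and 11 of 12 cell cycle genes lay under that 20 CPM mean.

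Time within cluster 8 was tested over 6 infiltrating and mixed libraries, 2 each at D1, D2 and D3, with edgeR's quasi-likelihood test on the summed counts and with sex as a term. At D10 and D21 no library reached 20 cells, so those times gave no comparison. From D1 to D3 no gene of 9312 (0%) passed an adjusted p under 0.05 in edgeR, 213 had an unadjusted p under that value, and DESeq2 called 4. From D1 to D2 1 gene of 9312 (0.0107%) passed, the hemoglobin chain Hbb-bs (edgeR adjusted p = 0.00877), with 1 UMI in the D2 libraries and 2855 in those of D1. That call rested on 1 cell: D1_infiltrating 1 held 2837 Hbb-bs UMIs in its 207 cluster 8 cells, and 2835 of them were in a single cell.

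Several genes were nevertheless apart between the libraries of D1 and D3, and their values are given without a call. Both D1 libraries were infiltrating ones from a single sequencing pool and the 2 D3 libraries came from other pools, so day and pool cannot be told apart here. Of the D3 libraries only D3_conflict 1 shared the pool of D1. With that library added and pool as a term, 6 genes passed in edgeR from D1 to D3, all of them lower. Chil3 was at 844 and 2118 CPM in the 2 libraries of D1, 1073 and 393 at D2 and 91.8 and 168 at D3 (D3 against D1 log2 -3.60, SE 0.85, edgeR adjusted p = 0.999). The 2 libraries of D3 lay below those of D1, but D3_conflict 1 stood at 1309 CPM, inside the D1 range. Thbs1 was at 357 and 883 CPM at D1, 817 and 245 at D2, 49.5 and 48.2 at D3 and 325 in D3_conflict 1.

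The monocyte-drawing chemokine Ccl2 was at 3608 and 5328 CPM at D1, 3919 and 1504 at D2, and 837 and 637 at D3 (log2 -2.65, SE 0.76, edgeR adjusted p = 0.999). Ccl7, its neighbour in function, was at 1608 and 2270, then 1223 and 918, then 307 and 404 CPM. D3_conflict 1 lay between the groups for both, at 2391 and 962 CPM. C1qa went the opposite way, from 688 and 451 CPM at D1 to 1668 and 2456 at D3, with 809 in D3_conflict 1. Nop58 showed no order by day, at 97.1 and 152, then 141 and 92.8, then 158 and 60.3 CPM.

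**Figure D5:**
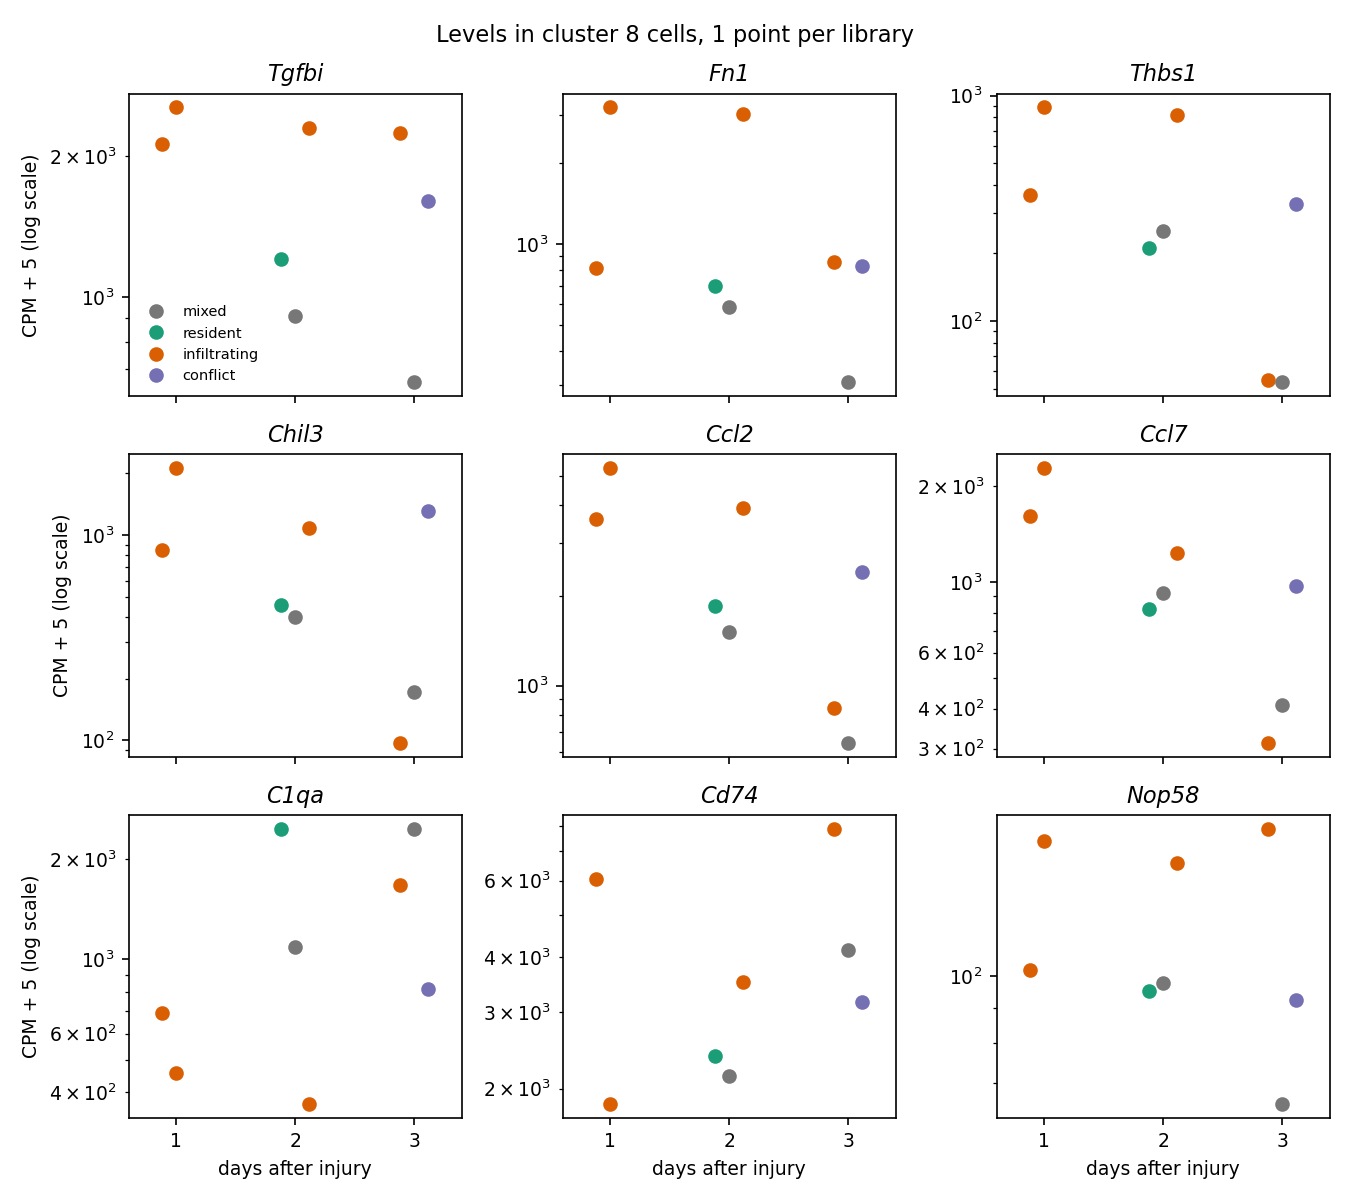
Level of 9 genes in the summed cluster 8 cells of 8 libraries by day after injury, as CPM + 5 on a log axis, with points coloured by sort. Chil3, Thbs1, Ccl2 and Ccl7 are lower in both D3 libraries used in the test than in both D1 libraries, and D3_conflict 1 lies above them.

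The nucleolar list had a median D3 against D1 change of -0.28 with 0 of 50 members called in either direction, beside 0.03 over all genes tested. For monocyte genes it was -1.55 (0 of 7 called) and for MHC class II genes 1.18 (0 of 11). The count at D3 moved with single libraries: 105 genes were called without D1_infiltrating 1, 5 without D1_infiltrating 2, 97 without D2_infiltrating 1 and 106 without D2_mixed 2, with 1 library left to stand for a time point in each and assumed to vary like the others, and 0 without either D3 library. At D2 the corresponding counts were 52, 7, 43 and 9, and 0 without either D3 library. Whether day moved cluster 8 differently from the other code 2 cells of the same libraries was asked with an interaction term for D3 against D1. No gene of 10200 (0%) passed in edgeR and 210 had an unadjusted p under 0.05; without D3_infiltrating 1 1 gene passed.

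Between mixed and infiltrating libraries 34 genes of 9312 (0.365%) differed in cluster 8 cells in edgeR, 11 (0.118%) higher and 23 (0.247%) lower in mixed ones, in a fit with only 1 residual degree of freedom between libraries and day, sex and sort as terms. The count was 21 without the sex term, in which the female label of D2_infiltrating 1 goes against its deposited code, 63 with median-of-ratios scaling and 298 without an expression filter. Both mixed libraries, D2_mixed 2 and D3_mixed 3, came from a sequencing pool that held none of the other 4, so sort, strain and pool cannot be told apart.

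Among the 5 named genes higher in mixed libraries, the fatty acid carriers Fabp3 and Fabp4 led. Fabp4 was at 192 and 124 CPM in the mixed libraries and at 69.5, 21.2, 13.7 and 22.9 in the infiltrating ones (log2 3.83, SE 0.56, edgeR adjusted p = 0.0175). Fabp3 was at 88.5 and 80.0 CPM against 6.86 to 49.2 (log2 3.86, SE 0.51, edgeR adjusted p = 0.0112). Neither gene's groups overlapped. Both log2 differences are adjusted for day and sex and exceed those between the plain means. The mean CPM were 84.3 in mixed and 21.3 in infiltrating libraries for Fabp3, and 158 and 31.8 for Fabp4. The others were Stmn1, a regulator of microtubules, the selenoprotein Selenom and the heme-binding Hebp1, with log2 differences of 3.11, 2.76 and 2.56.

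The 5 named genes lower in mixed libraries were Il1b, Ms4a8a, Ccr2, Id1 and Hopx. Ccr2 was at 277, 626, 585 and 615 CPM in the infiltrating libraries and at 67.4 and 41.7 in the mixed ones (log2 -3.66, SE 0.56, edgeR adjusted p = 0.0263). Il1b, the cytokine interleukin 1 beta, was at 36.9 to 208 CPM against 0.977 and 2.19 (log2 -8.46, SE 0.95, edgeR adjusted p = 0.00405, 5 UMIs in all in the mixed libraries). This difference is adjusted for day and sex and was -6.92 without the sex term, and the call was lost in DESeq2 (adjusted p = 0.104). Id1, an inhibitor of DNA-binding factors, differed by -3.24 and Hopx, a small homeodomain protein, by -2.98. The groups did not overlap for any of these 10, since the naming rule asked for that. They nearly touched for Id1, at 18.56 CPM in D2_mixed 2 and 18.64 in D3_infiltrating 1. For Stmn1 the mixed libraries stood at 19.2 and 123 CPM, and D3_infiltrating 1 at 19.0.

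By list, beside 0.118% higher and 0.247% lower of all genes tested, 1 of 5 given markers was lower in mixed libraries (Ccl24) and 0 were higher. Ccl24 was at 0 and 8.46 CPM in the mixed libraries but also at 2.15 CPM in D3_infiltrating 1, so the groups overlapped. Of 17 tested chemokines 3 were lower (Ccl17, Ccl24 and Cxcl3), and of 20 lipid genes 1 was higher (Fabp4). The groups overlapped for Ccl17 and Cxcl3 as well. Ccl17 was at 0 CPM in D1_infiltrating 1 and D3_infiltrating 1, as in both mixed libraries. Cxcl3 was at 2.15 CPM in D3_infiltrating 1 and at 7.16 in D2_mixed 2. Lower calls also fell on 1 of 8 macrophage genes (Mrc1), 1 of 7 monocyte genes (Ccr2), 1 of 11 inflammatory genes (Il1b) and 1 of 8 Ms4a genes (Ms4a8a). The groups overlapped for Mrc1, at 10.3 CPM in D1_infiltrating 1 and 22.8 in D2_mixed 2. The cystine transporter Slc7a11 was the 1 called gene of 15 in the heme and antioxidant list, at 76.4 to 195 CPM against 9.86 and 33.2. No nucleolar gene of 50 was called, with a list median of -0.44 beside -0.04 over all genes tested. S100a8 of the neutrophil list was among the called genes, higher in mixed libraries with overlapping groups and at 59.6 CPM or less. Its part in the difference was not tested.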

How the data were processed

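Droplet-based 3′ single-cell RNA-seq libraries (10x Genomics) of sorted spinal cord myeloid cells were used. Per library, the authors deposited a matrix of raw UMI counts (genes by cells), and for the whole series a table of cells. The submitters' processing notes name Cell Ranger 3.1.0, GRCm38 and mm10; cell filters and clustering settings were not given in the sources used here. The deposited table held codes for cluster, cell type and sequencing pool and the percent of mitochondrial counts per cell. The matrices held 22439 gene rows, and matrix sums equalled the deposited totals for 30958 of 30958 cells. All deposited cells were kept, doublets were not called and no correction was made for free RNA; leaving out cells with over 2 times their set's median UMIs was an alternative. D2_infiltrating 1 was labelled female and carried the deposited code of male libraries; the label was used.

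Counts were summed over cluster 8 cells, and over the other code 2 cells, in each library with at least 20 of them. Libraries are the replicates; the labels do not tie them to separate mice, so p-values measure the spread between these libraries. edgeR 4.0.16 (R 4.3.3; TMM, filterByExpr, quasi-likelihood test, 2-sided, Benjamini-Hochberg over all genes tested, threshold 0.05) was the main test and DESeq2 1.42.0 an alternative. Sums entered the tests from 912359 to 4432248 UMIs per library. The fitting script was tested on simulated counts for the D3 and sort comparisons. Intervals are 95% exact binomial ones and cover counting error only. In tests, genes were named where they passed the threshold, reached 50 CPM in the higher group and did not overlap between groups, the 5 largest each way; against the other code 2 cells, the 20 highest and 10 lowest with 1 sign in every library were named, with 5 given markers and examples of lists. Genes with overlapping groups or no call that are named besides were chosen after their values were seen. Members and lists were chosen with earlier results of these data known. Some genes of the lists and markers, and some with 1 sign in every library, are not reported here and were left out of list counts and named genes. Coordinates are those of GENCODE M21 on GRCm38. Alternatives covered scaling, filters, cell minimums, added or omitted libraries, covariates, pseudocounts and the comparison cells.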

Additional observations from a re-analysis of the deposited data

Results flagged for a closer look

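Of 39 sets of values checked for a library far from the others of its group, 4 stood out, where chance alone gives about 1 in 20. In D3_mixed 3 the log2 ratio of Nudcd2 was 0.24 while the next library was at 1.06, and that of Dctpp1 was 0.41 with the next at 0.97. In D3_infiltrating 1 the ratio of Thbs1 was -4.78 with the next at -2.47. In D2_resident 1 the median UMIs of cluster 8 cells were 2.59 times those of the other code 2 cells, against 1.503 in the next library. These libraries' part in the results was not tested beyond leaving each out.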

How the results depend on the processing

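Scaling, DESeq2, expression filters, cell minimums, added or omitted libraries and covariates were varied for the tests, and pseudocounts, cell filters and comparison cells for the ratios. From D1 to D2 the count of 1 became 9 without an expression filter, and 0 with a replicate block, with infiltrating libraries alone, with resident libraries added or with D3_conflict 1 added; leaving out each library in turn gave 0 to 52. From D1 to D3 the count of 0 became 4 in DESeq2, 71 without a filter and 3 with sort as a term; leaving out each library gave 0 to 106, and the replicate block gave 0. Replicate numbers were assigned by accession order and pair no samples, so this block result says nothing of pairing. The mixed against infiltrating count of 34 became 63 with median-of-ratios scaling, 298 without a filter, 67 with resident libraries and 60 with D3_conflict 1 added. The interaction count of 0 became 2 without a filter and ran from 0 to 1 over omitted libraries. Genes lower in every library numbered 363, and 372 to 1026 with each library left out, the highest without D3_mixed 3. The share difference between sorts turned to -4.04 points among code 2 cells, and ran from 4.41 to 6.93 points over omitted libraries, none past the threshold.

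Other alternatives were chosen after seeing the data. Without the sex term the counts were 0 for D2 and 21 for sort; within 1 sequencing pool, with D3_conflict 1 as its D3 library, D2 gave 0; with pool as a term and D3_conflict 1 added, D2 gave 55 and D3 gave 6; with resident libraries and D3_conflict 1 both added, sort gave 60. Genes lower in every library numbered 776 against cluster 11, 1315 against cluster 12, 140 against cluster 9 and 222 in the UMI window, and genes higher 1612 against cluster 12. Of the leading and lowest genes 10 reversed in their mean ratio, though not in every library, all against cluster 9: Fcrls -0.69, C1qa -0.60, Slpi 0.96, Thbs1 0.84, Cxcl3 0.31, Dusp1 0.47, Il1b 1.34, C3 0.39, Slfn4 0.66 and Fgl2 0.13. The causes of these changes were not tested.

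Hbb-bs lost its call in 11 alternatives, Id1 in 2 and Il1b and Selenom in 1 each. Not run for lack of residual degrees of freedom were pool as a term over the 6 libraries, mixed libraries alone, and, for sort, a replicate block or any omitted library; comparisons at D10 and D21 lacked libraries.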

Other observations

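Among 21 transcription factors, 17 were measured against the other code 2 cells; 0 were higher and 3 lower in all 8 libraries, Maf, the stress factor Atf3 and Tfec, with a list median of -0.26. Of 9 measured growth factors Pdgfa was higher in all 8 libraries, while Gdf15 and the vessel growth factor Vegfa were lower. Vegfa stood at 2.19 to 30.8 CPM in cluster 8 and 3.03 to 82.9 in the others. Among 9 measured matrix proteases and inhibitors 0 were higher and 2 lower, Mmp8 and Mmp19. Of 7 measured Ms4a genes 1 was lower, Ms4a8a. These counts stand beside 18.6% of all measured genes higher and 6.95% lower in all 8 libraries, and they carry no test.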
